A study of Homo sapiens with 12 samples.

Results

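The lysosomal hydrolases and their activator proteins were followed at the RNA level in MDA-MB-231, a cultured cell line from a human breast carcinoma that lacks hormone receptors. The set holds 44 genes, listed by symbol and matched to 60649 Ensembl gene IDs, and 43 of them had enough reads to be tested among 17576 genes. By substrate they fall into 11 cysteine proteases, 4 aspartic and serine proteases, 13 glycosidases, 5 sulfatases, 6 lipases and other lipid hydrolases, 2 activators of lipid hydrolases, and 3 phosphatases and nucleases. AGA, an amidase that cuts glycans from asparagine, is counted with the glycosidases. This list and the further gene lists below were drawn up by symbol and function, but with earlier results of these data known. Their shares of calls beside those of all genes are therefore descriptions, not tests. Cells were infected with lentivirus carrying a short hairpin RNA (shRNA), with Polybrene at 8 µg/mL, and kept under puromycin at 2.0 µg/mL in RPMI-1640 with 10% serum. The groups were SIRT1 KD (shRNA against SIRT1), IGF2BP2 KD (shRNA against IGF2BP2), double KD (both) and control (a sham shRNA per the treatment protocol, although the treatment label of these libraries reads untreated). Each group had 3 libraries, 12 in all, from conditions repeated independently 3 times; the labels do not say whether a repeat was a separate infection, or which hairpins were used. The p-values therefore measure the spread between these libraries, and effects of a hairpin other than on its target cannot be told apart from the loss of the target.

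Acid hydrolases are made in the endoplasmic reticulum, tagged with mannose 6-phosphate in the Golgi and carried by receptors to the lysosome, where the proton pump (v-ATPase) provides the low pH in which they digest proteins, glycans, lipids and nucleic acids. Activator proteins such as the saposins lift lipids out of membranes so that soluble enzymes can reach them. Many of these genes carry a CACGTG-based element in their promoters that is bound by TFEB and related MiT/TFE factors. In tumour cells, secreted or mislocalised cathepsins are known for degrading matrix. The study asks which transcripts depend on SIRT1, a protein deacetylase, and on IGF2BP2, a protein that binds messenger RNA, and a known transcript of interest is ATP6V1A, a catalytic subunit of the proton pump.

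The knockdowns were seen in the targeted transcripts. SIRT1 had 547, 496 and 539 normalised reads in SIRT1 KD, 763, 691 and 730.4 in IGF2BP2 KD, 396, 380.2 and 436 in double KD and 799, 841 and 863 in control cells, normalised by size factors. IGF2BP2 averaged 3757 ± 35.4 normalised reads in SIRT1 KD, 762 ± 69.6 in IGF2BP2 KD, 864 ± 139.8 in double KD and 3075 ± 44.5 in control cells (SD, n = 3 each). SIRT1 had a log2 fold change of -0.66 (95% limits -0.83 and -0.50, adjusted p = 4.27e-06) in SIRT1 KD cells. IGF2BP2 had a log2 fold change of -2.02 (95% limits -2.21 and -1.82, adjusted p = 2.12e-10) in IGF2BP2 KD cells. Both targets were reduced but not absent. The IGF2BP2 transcript in SIRT1 KD cells had a log2 fold change of 0.29 (95% limits 0.09 and 0.49, adjusted p = 0.0274), a call that was lost when any 1 library was left out among SIRT1 KD replicates 1, 2 or 3 and control replicates 1, 2 or 3 (adjusted p of 0.0619 to 0.0805). In 11 libraries 19522606 to 22509142 reads fell on genes. Double KD replicate 2 stood apart, with 15243152 reads, 1.18% of them mitochondrial against 1.99% to 2.57% in the others, and a standard deviation (SD) of log2 differences from its partners of 0.334. The same SD was 0.213 and 0.190 for those partners, double KD replicates 1 and 3, and 0.0981 to 0.160 for the 9 libraries of the other groups. All 4 groups share 1 estimate of the spread in the model, so this library touches every comparison, and results are also given without it. Markers of mesenchymal breast cancer cells (VIM, CD44, AXL, CAV1 and MSN) summed to 110189 to 143090 normalised reads in every library.

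A few members made up most of the RNA of the set. On a scale of normalised reads per kilobase of merged exons, which corrects for gene length, the level of PSAP, the precursor of the saposins, averaged 6905 in control cells, that of the aspartic protease CTSD 2645, of the carboxypeptidase CTSZ 2433 and of the cysteine protease CTSB 1103. FUCA1 (611), CTSL (533), NEU1 (503), LIPA (488), CTSA (462) and LGMN (401) came next. The ranges of the 3 control libraries did not overlap between neighbours down to CTSL, while CTSL and NEU1, NEU1 and LIPA, and LIPA and CTSA each overlapped. At the other end, CTSV averaged 14.6 and IDS 28.1. Together the 44 members took 0.400% ± 0.0146 of reads in SIRT1 KD cells, 0.432% ± 0.0229 in IGF2BP2 KD cells, 0.427% ± 0.0322 in double KD cells and 0.395% ± 0.0124 in control cells (SD, n = 3 each). The double KD range of 0.407% to 0.464% had its highest value in replicate 2.

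**Figure D1:**
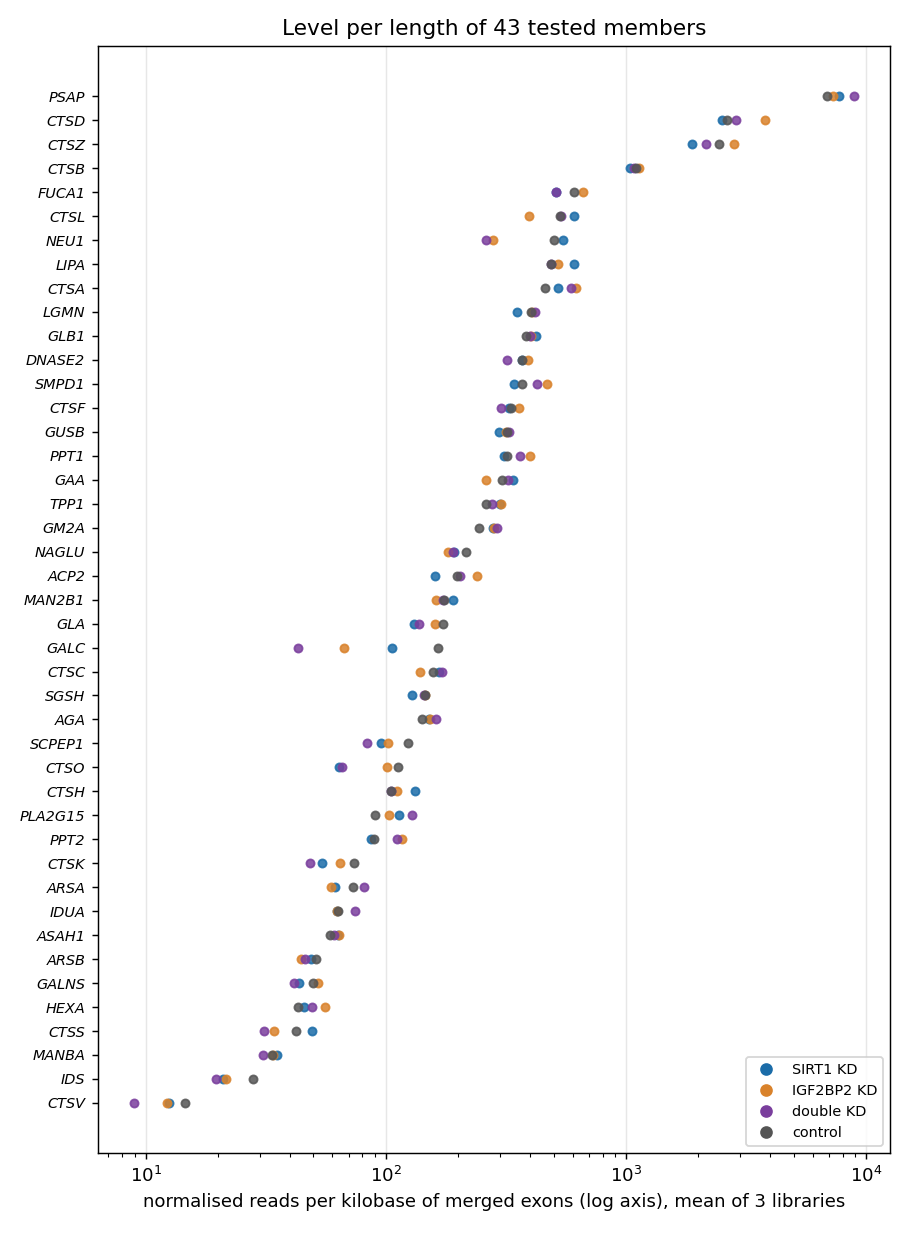
Mean level of the 43 tested members in 3 libraries per group, in normalised reads per kilobase of merged exons on a log axis; each dot is a group. PSAP, CTSD, CTSZ and CTSB lie highest in control cells, and GALC shows the widest distance between groups.

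In SIRT1 KD cells more of the called members were lower than higher, among them GALC, GLA, CTSO and CTSZ. Of the 43 tested members, 3 rose (CTSH, LIPA and GM2A) and 8 fell (CTSK, CTSO, CTSZ, SCPEP1, GALC, GLA, FUCA1 and ACP2) at an adjusted p under 0.05 (limma, Benjamini-Hochberg over all tested genes). This is 25.6% of the members, against 28.6% of all tested genes (12.9% higher, 15.7% lower), and the members' median log2 fold change was -0.04 against -0.00 for all genes, a share and a median near the background. Calls of CTSH, CTSO, CTSZ, GALC, GLA and SCPEP1 held in all 21 alternative analyses. The count was 6 without control replicate 1 (1 higher, 5 lower) and 21 without double KD replicate 2 (8 higher, 13 lower), against a background of 39.8% (18.9% higher, 20.9% lower). Leaving out control replicate 2 or SIRT1 KD replicate 1 or 3 also left 1 member higher, and leaving out double KD replicate 1 gave 5. As these are bulk samples, fewer cells with a transcript and less RNA per cell cannot be told apart.

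In IGF2BP2 KD cells more of the called members were higher than lower, among them CTSA, HEXA, SMPD1 and PPT2. Here 8 members rose (CTSD, CTSA, HEXA, SMPD1, PPT1, PPT2, GM2A and ACP2) and 4 fell (CTSL, SCPEP1, GALC and NEU1), which is 27.9% of the members against 16.3% of all tested genes. Of all genes 6.86% rose and 9.39% fell. The median log2 fold change of the members was 0.04, against -0.00 for all genes, and -0.01 for the members without control replicate 2. Calls of CTSA, CTSL, GALC, HEXA, NEU1, PPT2 and SMPD1 held in all 21 alternatives. The count was 7 without control replicate 2 (4 higher) and 22 without double KD replicate 2 (11 higher and 11 lower), against a background of 28.7% (13% higher, 15.7% lower). In addition, 5 members were higher without IGF2BP2 KD replicate 2.

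In double KD cells 6 members rose (CTSA, HEXA, PLA2G15, PPT2, PSAP and GM2A) and 11 fell (CTSK, CTSO, CTSS, CTSV, SCPEP1, GALC, GLA, NEU1, FUCA1, GALNS and IDS), or 39.5% of the members against 34.2% of all tested genes (16.7% higher, 17.5% lower). The median of the members was -0.00, against 0.01 for all genes. Calls of CTSA, CTSK, CTSO, CTSS, CTSV, GALC, NEU1, PLA2G15 and SCPEP1 held in all 21 alternatives, and without double KD replicate 2 there were 7 higher and 15 lower, against a background of 40.2% (19.6% higher, 20.6% lower). The 3 comparisons share their control libraries. In at least 1 of them 25 members were called, GALC, GM2A and SCPEP1 in all 3, and 18 members in none of the 3. These counts without double KD replicate 2 were 35 in at least 1, 9 in all 3 (CTSA, CTSZ, GALC, GM2A, IDS, NAGLU, PLA2G15, SCPEP1 and TPP1) and 8 in none. Such overlaps were not counted over all tested genes, so no excess or lack among the members can be read from them.

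**Figure D2:**
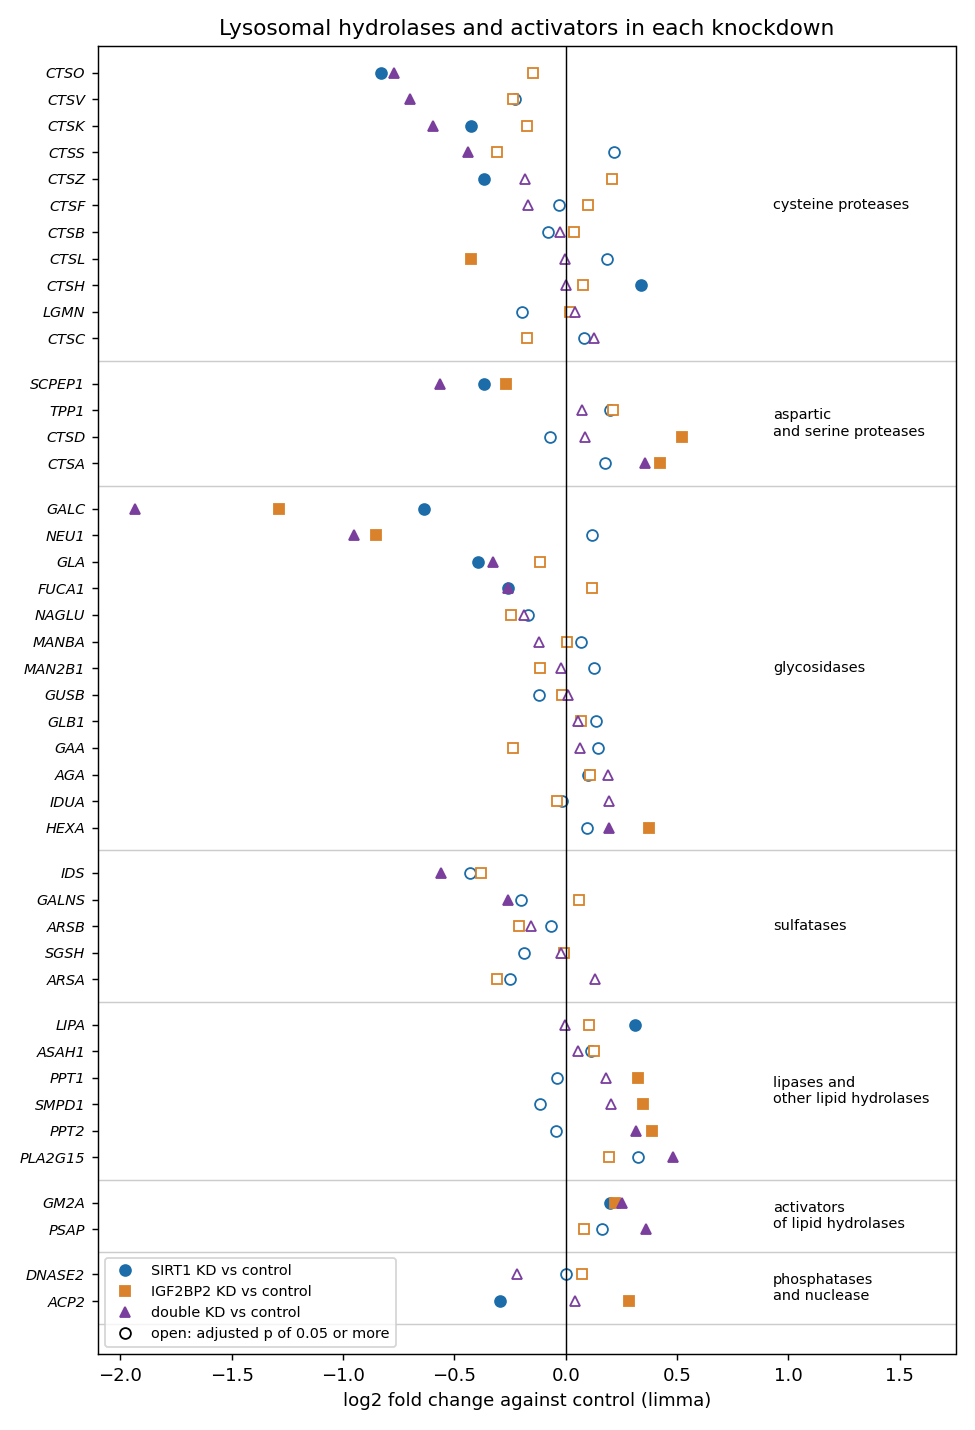
Log2 fold change against control (limma) of the 43 tested members, by substrate group, in SIRT1 KD (circles), IGF2BP2 KD (squares) and double KD (triangles); filled symbols have an adjusted p under 0.05. GALC lies lowest in double KD at -1.93, and NEU1 is below -0.8 in both groups that carry the IGF2BP2 hairpin. The group of lipases and other lipid hydrolases, which leaves out GALC and GLA, lies mostly right of 0.

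Among the 11 cysteine proteases, 1 rose and 3 fell in SIRT1 KD cells, 1 fell in IGF2BP2 KD cells, and 4 fell in double KD cells. That is 36.4%, 9.09% and 36.4% of them, against 28.6%, 16.3% and 34.2% of all tested genes. The counts without double KD replicate 2 were 2 higher and 4 lower in SIRT1 KD, 1 and 3 in IGF2BP2 KD, and 6 lower in double KD cells. Of all tested genes 39.8%, 28.7% and 40.2% were then called in that order. CTSO, a cathepsin of the papain family, had 202, 149 and 216 normalised reads in SIRT1 KD, 306, 283 and 312 in IGF2BP2 KD, 191, 173 and 221 in double KD and 336, 304 and 359 in control cells. The SIRT1 KD and the double KD libraries all lay below the control libraries, while the IGF2BP2 KD range overlapped it. CTSO had a log2 fold change of -0.83 (95% limits -1.10 and -0.56, adjusted p = 8.53e-05) in SIRT1 KD cells. For CTSO in IGF2BP2 KD cells it was -0.15 (95% limits -0.42 and 0.13, adjusted p = 0.509). In double KD, CTSO stood at -0.77 (95% limits -1.04 and -0.50, adjusted p = 0.000135). CTSK, a collagen-degrading cathepsin best known from osteoclasts, had 106, 99.4 and 101 normalised reads in SIRT1 KD, 119.5, 132 and 115 in IGF2BP2 KD, 90.8, 100.2 and 82.4 in double KD and 144, 118 and 154 in control cells. Every SIRT1 KD and double KD library lay below every control library. CTSK had a log2 fold change of -0.43 (95% limits -0.70 and -0.15, adjusted p = 0.0188) in SIRT1 KD cells. For CTSK in double KD cells it was -0.59 (95% limits -0.87 and -0.32, adjusted p = 0.00154). The SIRT1 KD call of CTSK was lost when any 1 library was left out among SIRT1 KD replicates 2 or 3 and control replicates 1 or 3 (adjusted p of 0.0558 to 0.105).

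CTSZ, a carboxypeptidase and one of the most abundant members, had 3940.1, 3778 and 3827 normalised reads in SIRT1 KD, 5450.1, 5867 and 5895 in IGF2BP2 KD, 3939.7, 5016 and 4220.0 in double KD and 5023, 4876 and 4975 in control cells. The SIRT1 KD libraries lay below every control and IGF2BP2 KD library, and the IGF2BP2 KD libraries above all others. CTSZ had a log2 fold change of -0.37 (95% limits -0.52 and -0.21, adjusted p = 0.0011) in SIRT1 KD cells. For CTSZ in IGF2BP2 KD cells it was 0.21 (95% limits 0.05 and 0.37, adjusted p = 0.0648). In double KD, CTSZ stood at -0.18 (95% limits -0.34 and -0.02, adjusted p = 0.0694). Only the SIRT1 KD change of CTSZ passed the test with all libraries. CTSZ without double KD replicate 2 was also called in both other groups, at 0.21 (adjusted p = 0.00157) in IGF2BP2 KD and -0.28 (adjusted p = 9.36e-05) in double KD cells. CTSL, an endopeptidase that also matures other hydrolases, had 1505, 1373 and 1420.2 normalised reads in SIRT1 KD, 921, 956 and 932 in IGF2BP2 KD, 1085, 1496 and 1218 in double KD and 1289.9, 1181 and 1309 in control cells. The 3 IGF2BP2 KD libraries were the lowest of the 12 and did not overlap with any other group. CTSL had a log2 fold change of -0.43 (95% limits -0.62 and -0.23, adjusted p = 0.0033) in IGF2BP2 KD cells. For CTSL in double KD cells it was -0.00 (95% limits -0.20 and 0.19, adjusted p = 0.98). The double KD libraries spread on both sides of the control range. In SIRT1 KD cells CTSL was called higher without double KD replicate 2, at 0.19 (adjusted p = 0.0107).

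CTSH, an aminopeptidase, was the cysteine protease that rose in SIRT1 KD cells, at 783, 749 and 812 normalised reads in SIRT1 KD, 657, 662 and 640.3 in IGF2BP2 KD, 612, 637 and 607 in double KD and 657, 574 and 627 in control cells. The SIRT1 KD libraries lay above every other library, while the double KD libraries lay within the control range. CTSH had a log2 fold change of 0.34 (95% limits 0.18 and 0.49, adjusted p = 0.00175) in SIRT1 KD cells. For CTSH in double KD cells it was 0.00 (95% limits -0.15 and 0.15, adjusted p = 0.997). CTSS, an elastin-degrading cathepsin that processes the invariant chain in antigen-presenting cells, had 222, 189 and 213 normalised reads in SIRT1 KD, 141, 145 and 147 in IGF2BP2 KD, 120.2, 128 and 148 in double KD and 184, 167 and 185 in control cells. The double KD and IGF2BP2 KD libraries lay below the control range, the SIRT1 KD libraries above it. CTSS had a log2 fold change of 0.21 (95% limits -0.02 and 0.45, adjusted p = 0.167) in SIRT1 KD cells. For CTSS in IGF2BP2 KD cells it was -0.31 (95% limits -0.54 and -0.07, adjusted p = 0.0684). In double KD, CTSS stood at -0.44 (95% limits -0.67 and -0.20, adjusted p = 0.00496). The double KD change of CTSS was the one that passed the test with all libraries, and without double KD replicate 2 the IGF2BP2 KD value was called too, at -0.31 (adjusted p = 0.0248). CTSV, the closest relative of CTSL, had 66.5, 49.2 and 60.0 normalised reads in SIRT1 KD, 58.9, 57.3 and 57.5 in IGF2BP2 KD, 34.7, 43.9 and 47.4 in double KD and 76.6, 65.4 and 63.6 in control cells, with the double KD libraries the lowest. CTSV had a log2 fold change of -0.70 (95% limits -1.05 and -0.35, adjusted p = 0.0031) in double KD cells. With all libraries CTSB, CTSC, CTSF and LGMN were called in no comparison with control. Leaving out double KD replicate 2, CTSC was called in IGF2BP2 KD at -0.17 (adjusted p = 0.0153), CTSF in double KD at -0.37 (adjusted p = 0.000236) and LGMN in SIRT1 KD cells at -0.19 (adjusted p = 0.00568). CTSB had a log2 fold change of -0.08 (95% limits -0.21 and 0.06, adjusted p = 0.404) in SIRT1 KD cells.

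Of the aspartic and serine proteases, CTSD and CTSA rose in IGF2BP2 KD cells and SCPEP1 fell in all 3 knockdowns. CTSD, the main aspartic protease of the lysosome, had 8506, 6975 and 8185 normalised reads in SIRT1 KD, 10874, 13205 and 11693 in IGF2BP2 KD, 7417, 11634 and 7819 in double KD and 8432, 7969.9 and 8399.7 in control cells. The IGF2BP2 KD libraries lay above the control libraries, and in double KD cells replicates 1 and 3 lay below the control range and replicate 2 far above it. CTSD had a log2 fold change of 0.52 (95% limits 0.24 and 0.81, adjusted p = 0.015) in IGF2BP2 KD cells. For CTSD in double KD cells it was 0.09 (95% limits -0.20 and 0.37, adjusted p = 0.676). The IGF2BP2 KD call of CTSD was lost when any 1 library was left out among IGF2BP2 KD replicate 2 and control replicate 2 (adjusted p of 0.0563 to 0.0653). It was also lost with no filter (adjusted p = 0.161) and with variance moderation without trend or robustness (adjusted p = 0.0563). CTSA, a carboxypeptidase that also forms a protective complex with NEU1 and the galactosidase GLB1, had 3202, 2850.1 and 3141 normalised reads in SIRT1 KD, 3412, 3906 and 3592 in IGF2BP2 KD, 3367, 3438 and 3582 in double KD and 2699, 2649 and 2772 in control cells. All 9 knockdown libraries lay above all control libraries. CTSA had a log2 fold change of 0.18 (95% limits 0.04 and 0.32, adjusted p = 0.0544) in SIRT1 KD cells. For CTSA in IGF2BP2 KD cells it was 0.42 (95% limits 0.28 and 0.56, adjusted p = 0.000216). In double KD, CTSA stood at 0.35 (95% limits 0.21 and 0.49, adjusted p = 0.000406). The SIRT1 KD difference of CTSA did not pass the test with all libraries, and stood at 0.18 (adjusted p = 0.0094) without double KD replicate 2.

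SCPEP1, a serine carboxypeptidase-like protein, had 386, 349 and 369.5 normalised reads in SIRT1 KD, 406, 379 and 401 in IGF2BP2 KD, 305, 323 and 335 in double KD and 463, 458 and 506 in control cells. Its control libraries were the highest of the 12 and the double KD libraries the lowest. SCPEP1 had a log2 fold change of -0.37 (95% limits -0.54 and -0.20, adjusted p = 0.00224) in SIRT1 KD cells. For SCPEP1 in IGF2BP2 KD cells it was -0.27 (95% limits -0.44 and -0.09, adjusted p = 0.0331). In double KD, SCPEP1 stood at -0.57 (95% limits -0.74 and -0.39, adjusted p = 2.97e-05). The IGF2BP2 KD call of SCPEP1 was lost when any 1 library was left out among IGF2BP2 KD replicates 1, 2 or 3 and control replicates 1, 2 or 3 (adjusted p of 0.0589 to 0.16). TPP1, a tripeptidyl peptidase, had log2 fold changes of 0.20 in SIRT1 KD, 0.21 in IGF2BP2 KD and 0.08 in double KD cells, with adjusted p of 0.0747, 0.089 and 0.522. TPP1 was called in all 3 without double KD replicate 2, at 0.20 (adjusted p = 0.00372) in SIRT1 KD, 0.21 (adjusted p = 0.00369) in IGF2BP2 KD and 0.17 (adjusted p = 0.0263) in double KD cells. CTSD shares 41.7% of its merged exon length with the annotated gene AC068580.4 on the same strand, and CTSA shares 17.7% with NEURL2 on the other strand. As no source states the strand setting of the counting, reads from such stretches cannot be told apart.

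**Figure D3:**
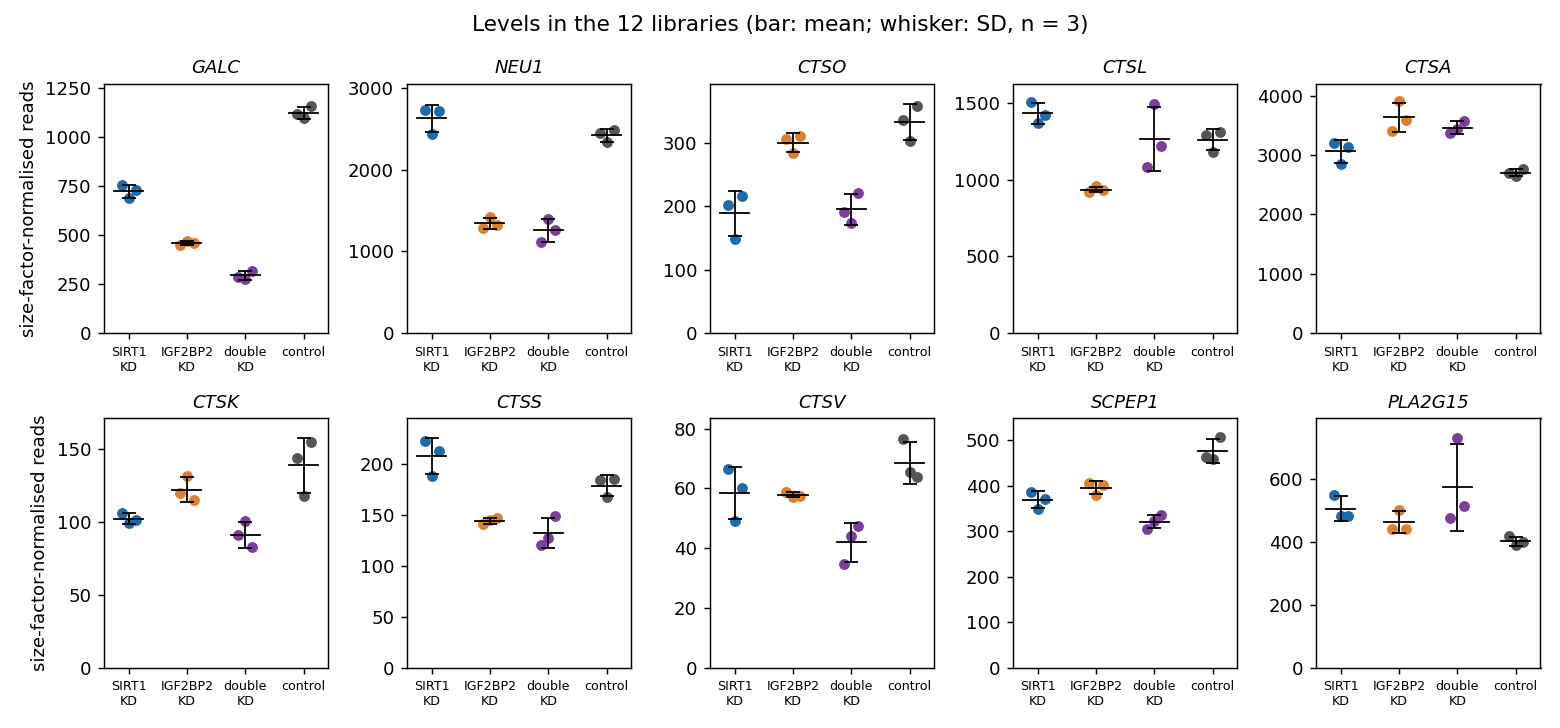
Size-factor-normalised reads of 10 members in each of the 12 libraries (dots), with the group mean and SD (n = 3), on linear axes that start at 0. GALC is lowest in double KD, NEU1 is low in both groups with the IGF2BP2 hairpin, CTSO in both with the SIRT1 hairpin, and CTSL in IGF2BP2 KD; replicate 2, the middle dot, is the highest of the double KD libraries in CTSL, NEU1, CTSK and PLA2G15.

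The promoters of CTSA, CTSD, NEU1 and SCPEP1, which were all called in IGF2BP2 KD cells, each hold the hexamer CACGTG, the core of the element bound by MiT/TFE factors. In RefSeq windows around the gene start, most of each before it, on GRCh38.p14, matched by symbol for 32 of the 44 members, CACGTG (which reads the same on both strands) was found in 7 members (CTSA, CTSD, CTSF, GAA, GALNS, NEU1 and SCPEP1). That is 21.9% of the matched members, against 8.88% of 15842 promoters of the same length. The octamer TCACGTGA, which contains the hexamer, was found in 4 members and in 1.43% of all promoters. The windows are shown 5′ to 3′ on the gene's strand to compare the flanks, with the hexamer in capitals.
CTSA, chr20:45891281-45891310, plus strand: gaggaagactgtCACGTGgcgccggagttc
CTSA, chr20:45891298-45891327, plus strand: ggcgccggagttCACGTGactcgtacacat
CTSD, chr11:1763957-1763986, minus strand: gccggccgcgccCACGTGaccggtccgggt
CTSF, chr11:66568640-66568669, minus strand: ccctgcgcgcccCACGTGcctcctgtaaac
CTSF, chr11:66568712-66568741, minus strand: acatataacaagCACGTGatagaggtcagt
GAA, chr17:80101493-80101522, plus strand: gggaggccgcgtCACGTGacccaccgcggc
GAA, chr17:80101538-80101567, plus strand: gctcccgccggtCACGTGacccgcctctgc
GALNS, chr16:88856962-88856991, minus strand: cgccccgcgagtCACGTGgccgtccaggcc
GALNS, chr16:88857104-88857133, minus strand: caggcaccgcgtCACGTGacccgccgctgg
NEU1, chr6:31862930-31862959, minus strand: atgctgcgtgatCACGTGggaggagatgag
SCPEP1, chr17:56978092-56978121, plus strand: gtccgcctccgtCACGTGatggggcgccgg

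The members that share the hexamer were called in both directions. In IGF2BP2 KD cells the log2 fold changes were 0.52 for CTSD and 0.42 for CTSA, which rose, -0.85 for NEU1 and -0.27 for SCPEP1, which fell, and 0.10 for CTSF, -0.24 for GAA and 0.06 for GALNS, which did not pass the test. GAA was called without double KD replicate 2, at -0.24 (adjusted p = 0.0128). A match says only that these letters stand in the window. Of the factors that bind the element, TFEB had 253, 237 and 282 normalised reads in SIRT1 KD, 389, 439 and 441 in IGF2BP2 KD, 305, 421 and 358 in double KD and 368, 327 and 343 in control cells. The TFEB libraries of SIRT1 KD lay below all others. TFEB had a log2 fold change of -0.43 (95% limits -0.66 and -0.19, adjusted p = 0.00679) in SIRT1 KD cells. The TFEB log2 fold changes were 0.29 in IGF2BP2 KD and 0.05 in double KD cells, with adjusted p of 0.087 and 0.766. With all libraries TFE3 and MITF were called in no comparison with control. Among the 3 factors tested of 4, limma called 0 in IGF2BP2 KD (2 at an unadjusted p under 0.05) and 0 in double KD cells (0 at an unadjusted p under 0.05), as did edgeR and DESeq2. TFEB and MITF were called lower in SIRT1 KD, and TFEB higher and TFE3 lower in IGF2BP2 KD cells, without double KD replicate 2.

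The 13 glycosidases held the largest changes of the set. GALC, the enzyme that cleaves galactosylceramide and whose loss causes Krabbe disease, lies on the minus strand of chromosome 14 at 87837820 to 87993665 in GRCh38 (GENCODE 29). It had 754, 686 and 727 normalised reads in SIRT1 KD, 449.6, 467 and 461 in IGF2BP2 KD, 287, 276 and 318 in double KD and 1115, 1098 and 1155 in control cells. The groups did not overlap, and the level fell to 64.3% of control in SIRT1 KD, 40.9% in IGF2BP2 KD and 26.2% in double KD cells. GALC had a log2 fold change of -0.64 (95% limits -0.80 and -0.48, adjusted p = 4.65e-06) in SIRT1 KD cells. For GALC in IGF2BP2 KD cells it was -1.29 (95% limits -1.45 and -1.13, adjusted p = 3.88e-09). In double KD, GALC stood at -1.93 (95% limits -2.09 and -1.77, adjusted p = 4.28e-12). The double KD change was close to the sum of both single changes: the departure from that sum was -0.01 (95% limits -0.24 and 0.22, adjusted p = 0.974).

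NEU1, the lysosomal sialidase, lies on the minus strand of chromosome 6 at 31857659 to 31862906. It had 2741, 2442 and 2720.4 normalised reads in SIRT1 KD, 1289.8, 1418 and 1325 in IGF2BP2 KD, 1119.8, 1401 and 1260.3 in double KD and 2448, 2338 and 2496 in control cells. The 6 libraries with the IGF2BP2 hairpin lay far below the other 6, and SIRT1 KD overlapped with control. NEU1 had a log2 fold change of 0.12 (95% limits -0.05 and 0.28, adjusted p = 0.308) in SIRT1 KD cells. For NEU1 in IGF2BP2 KD cells it was -0.85 (95% limits -1.02 and -0.69, adjusted p = 6.84e-07). In double KD, NEU1 stood at -0.95 (95% limits -1.12 and -0.78, adjusted p = 3.83e-08). CTSA, which stabilises the NEU1 protein, was higher in the same 2 groups, as given above.

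GLA, the alpha-galactosidase deficient in Fabry disease, had 288, 302 and 307 normalised reads in SIRT1 KD, 393, 344 and 353 in IGF2BP2 KD, 318, 309 and 312 in double KD and 381, 364 and 438 in control cells. All SIRT1 KD and double KD libraries lay below control. GLA had a log2 fold change of -0.39 (95% limits -0.58 and -0.20, adjusted p = 0.00274) in SIRT1 KD cells. For GLA in double KD cells it was -0.33 (95% limits -0.52 and -0.14, adjusted p = 0.00845). The double KD call of GLA was lost without control replicate 3 (adjusted p = 0.0681). FUCA1, a fucosidase, had 1093, 915 and 1133 normalised reads in SIRT1 KD, 1317, 1339 and 1414 in IGF2BP2 KD, 951, 1109 and 1074 in double KD and 1267, 1158 and 1327 in control cells. Its SIRT1 KD and double KD libraries lay below the control range, and the IGF2BP2 KD libraries overlapped with it. FUCA1 had a log2 fold change of -0.26 (95% limits -0.44 and -0.08, adjusted p = 0.0307) in SIRT1 KD cells. For FUCA1 in double KD cells it was -0.26 (95% limits -0.44 and -0.08, adjusted p = 0.0258). The SIRT1 KD call of FUCA1 was lost when any 1 library was left out among SIRT1 KD replicate 2 and control replicates 1 or 3 (adjusted p of 0.093 to 0.194). Its double KD call was lost when any 1 library was left out among double KD replicate 1 and control replicates 1 or 3 (adjusted p of 0.081 to 0.122).

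HEXA, the alpha subunit of hexosaminidase A, which degrades GM2 ganglioside, was the glycosidase that rose in IGF2BP2 KD cells. HEXA had 592, 566 and 577 normalised reads in SIRT1 KD, 691, 719 and 698 in IGF2BP2 KD, 591, 659 and 613 in double KD and 555, 552 and 518 in control cells. The IGF2BP2 KD libraries were the highest of the 12. HEXA had a log2 fold change of 0.38 (95% limits 0.22 and 0.53, adjusted p = 0.0013) in IGF2BP2 KD cells. For HEXA in double KD cells it was 0.20 (95% limits 0.04 and 0.35, adjusted p = 0.043). The double KD call of HEXA was lost when any 1 library was left out among SIRT1 KD replicates 1, 2 or 3, IGF2BP2 KD replicates 1 or 3, double KD replicates 2 or 3 and control replicates 1, 2 or 3 (adjusted p of 0.053 to 0.167). With all libraries the other 8 genes listed as glycosidases, GAA, GLB1, GUSB, IDUA, MANBA, MAN2B1, NAGLU and the amidase AGA, passed the test in no comparison with control. Their log2 fold changes lay between -0.24 and 0.19. IDUA, the iduronidase of heparan and dermatan sulfate, had 240.3, 249 and 260.0 normalised reads in SIRT1 KD, 239.9, 321 and 193 in IGF2BP2 KD, 319, 359.6 and 211 in double KD and 232, 248 and 281 in control cells. NAGLU, which also acts on heparan sulfate, was without double KD replicate 2 called in all 3 knockdowns, at -0.17 (adjusted p = 0.0455) in SIRT1 KD, -0.24 (adjusted p = 0.00532) in IGF2BP2 KD and -0.32 (adjusted p = 0.000655) in double KD cells. GUSB has many pseudogene copies that may share its reads.

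The sulfatases, which strip sulfate from glycosaminoglycans and sulfatides, had their calls against control in double KD cells with all libraries, where GALNS and IDS fell, but in single knockdowns too without double KD replicate 2. With all libraries 0 of 5 were called in each single knockdown by limma and by edgeR, with 3 of 5 lower at an unadjusted p under 0.05 in SIRT1 KD and 3 of 5 in IGF2BP2 KD cells. Of all tested genes limma called 15.7% lower in SIRT1 KD, 9.39% in IGF2BP2 KD and 17.5% in double KD cells. In IGF2BP2 KD cells DESeq2 called 0 of 5. DESeq2 called IDS lower in SIRT1 KD, where it called 15.2% of all genes lower and edgeR called 15.9%. When double KD replicate 2 was left out, limma called 3 of 5 lower in SIRT1 KD, GALNS at -0.20 (adjusted p = 0.0319), IDS at -0.43 (adjusted p = 0.00117) and SGSH at -0.19 (adjusted p = 0.0101). It then also called 3 of 5 lower in IGF2BP2 KD, IDS at -0.38 (adjusted p = 0.0055), ARSA at -0.31 (adjusted p = 0.0286) and ARSB at -0.21 (adjusted p = 0.0492). Of all tested genes 20.9% were then lower in SIRT1 KD and 15.7% in IGF2BP2 KD cells. IDS, which acts on heparan and dermatan sulfate, had 217, 159.7 and 209.5 normalised reads in SIRT1 KD, 186, 232 and 186 in IGF2BP2 KD, 147, 244 and 154 in double KD and 271, 268 and 245 in control cells. Double KD replicates 1 and 3 were the lowest of the 12 and replicate 2 lay just under the lowest control library. IDS had a log2 fold change of -0.56 (95% limits -0.92 and -0.21, adjusted p = 0.0152) in double KD cells. Without replicate 2 that double KD value was -0.79 (adjusted p = 5.25e-07). The double KD call of IDS was lost when any 1 library was left out among double KD replicates 1 or 3 and control replicate 1 (adjusted p of 0.0544 to 0.0717), and a pseudogene copy of IDS may share its reads. GALNS, which acts on keratan sulfate, had 371, 352 and 371 normalised reads in SIRT1 KD, 415, 468 and 428 in IGF2BP2 KD, 353, 343 and 353 in double KD and 394, 422 and 442 in control cells. All double KD libraries lay below control. GALNS had a log2 fold change of -0.26 (95% limits -0.43 and -0.09, adjusted p = 0.0196) in double KD cells. The call of GALNS was lost when any 1 library was left out among control replicates 2 or 3 (adjusted p of 0.058 to 0.0972). With all libraries ARSB and SGSH were called in no comparison, and ARSA in the comparison of double KD with IGF2BP2 KD given below.

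Among the 6 lipid hydrolases and 2 activators every member called against control was higher: LIPA and GM2A in SIRT1 KD, SMPD1, PPT1, PPT2 and GM2A in IGF2BP2 KD, and PLA2G15, PPT2, PSAP and GM2A in double KD cells. This depends on the grouping, as enzymes that act on glycolipids are counted with the glycosidases and sulfatases. Of those, GALC and GLA were called lower and HEXA higher, as given above. The median log2 fold change of the 6 lipid hydrolases was 0.04 in SIRT1 KD, 0.26 in IGF2BP2 KD and 0.19 in double KD cells, against -0.00, -0.00 and 0.01 for all tested genes. Of these 6, 1, 3 and 2 rose in that order, where 12.9%, 6.86% and 16.7% of all tested genes rose. PPT1 was called without double KD replicate 2 in double KD cells at 0.27 (adjusted p = 0.00101). SMPD1, the acid sphingomyelinase, had 962, 910.1 and 951 normalised reads in SIRT1 KD, 1244, 1382 and 1256 in IGF2BP2 KD, 1041, 1323 and 1169.6 in double KD and 1047, 970.3 and 1038 in control cells. The IGF2BP2 KD libraries lay above the control and SIRT1 KD ranges. SMPD1 had a log2 fold change of 0.34 (95% limits 0.17 and 0.52, adjusted p = 0.00668) in IGF2BP2 KD cells. PPT1, which removes palmitate from proteins, had 1663, 1430.2 and 1657 normalised reads in SIRT1 KD, 2017, 1962 and 2127 in IGF2BP2 KD, 1845, 1618 and 2082 in double KD and 1584, 1577 and 1713 in control cells. The IGF2BP2 KD libraries of PPT1 lay above control. PPT1 had a log2 fold change of 0.33 (95% limits 0.14 and 0.51, adjusted p = 0.0136) in IGF2BP2 KD cells. This call was lost when any 1 library was left out among IGF2BP2 KD replicate 3 and control replicates 1 or 2 (adjusted p of 0.0617 to 0.0727).

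PPT2, a related thioesterase, had 257, 242 and 264 normalised reads in SIRT1 KD, 325, 349.6 and 357 in IGF2BP2 KD, 324, 349 and 307 in double KD and 244, 282 and 261 in control cells. All 6 libraries with the IGF2BP2 hairpin lay above the other 6. PPT2 had a log2 fold change of 0.39 (95% limits 0.20 and 0.58, adjusted p = 0.00606) in IGF2BP2 KD cells. For PPT2 in double KD cells it was 0.31 (95% limits 0.12 and 0.51, adjusted p = 0.0118). The double KD call of PPT2 was lost without control replicate 1 (adjusted p = 0.0689). PPT2 shares 49.3% of its merged exon length with the readthrough gene PPT2-EGFL8, and PPT1 shares 23.4% with CAP1 on the other strand. LIPA, the acid lipase that frees cholesterol from its esters, had 3102, 2665 and 3153 normalised reads in SIRT1 KD, 2571, 2427 and 2721 in IGF2BP2 KD, 2467, 2107 and 2623 in double KD and 2308, 2313 and 2565 in control cells. The SIRT1 KD libraries were above the control libraries and overlapped with IGF2BP2 KD. LIPA had a log2 fold change of 0.31 (95% limits 0.13 and 0.49, adjusted p = 0.0107) in SIRT1 KD cells. The call of LIPA was lost when any 1 library was left out among SIRT1 KD replicates 1 or 3 and control replicates 1 or 2 (adjusted p of 0.0507 to 0.063).

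PLA2G15, a lysosomal phospholipase, had 550.1, 483 and 481 normalised reads in SIRT1 KD, 442, 502 and 442 in IGF2BP2 KD, 474, 730.1 and 514 in double KD and 418, 390.4 and 398 in control cells. All 9 knockdown libraries lay above control, and double KD replicate 2 was by far the highest. PLA2G15 had a log2 fold change of 0.48 (95% limits 0.22 and 0.74, adjusted p = 0.00514) in double KD cells. Without that library it was 0.30 (adjusted p = 0.00387), and PLA2G15 was also called in SIRT1 KD at 0.32 (adjusted p = 0.000454) and in IGF2BP2 KD cells at 0.20 (adjusted p = 0.044). PSAP had 26708, 22842 and 25627 normalised reads in SIRT1 KD, 22488, 24651 and 23981 in IGF2BP2 KD, 25232, 35028 and 26803 in double KD and 23075, 21145 and 22872 in control cells. Double KD replicate 2 was the highest here too, and the double KD libraries lay above control. PSAP had a log2 fold change of 0.36 (95% limits 0.16 and 0.57, adjusted p = 0.00736) in double KD cells, a call that was lost with no filter (adjusted p = 0.105). Without double KD replicate 2, PSAP stood at 0.22 (adjusted p = 0.00431) there and at 0.16 (adjusted p = 0.0184) in SIRT1 KD cells. GM2A, the activator that presents GM2 ganglioside to hexosaminidase A, had 1253, 1209 and 1285 normalised reads in SIRT1 KD, 1274, 1272 and 1261 in IGF2BP2 KD, 1206, 1385 and 1313 in double KD and 1099, 1009.5 and 1163 in control cells. All 9 knockdown libraries lay above control. GM2A had a log2 fold change of 0.20 (95% limits 0.05 and 0.35, adjusted p = 0.046) in SIRT1 KD cells. For GM2A in IGF2BP2 KD cells it was 0.22 (95% limits 0.07 and 0.37, adjusted p = 0.0423). In double KD, GM2A stood at 0.25 (95% limits 0.10 and 0.40, adjusted p = 0.00973). The SIRT1 KD call of GM2A was lost when any 1 library was left out among SIRT1 KD replicates 1, 2 or 3, IGF2BP2 KD replicates 1 or 3 and control replicates 1 or 2 (adjusted p of 0.0584 to 0.219). Its IGF2BP2 KD call was lost when any 1 library was left out among SIRT1 KD replicates 1, 2 or 3, IGF2BP2 KD replicates 1, 2 or 3 and control replicates 1 or 2 (adjusted p of 0.0549 to 0.208). Its double KD call was lost without control replicate 2 (adjusted p = 0.0674). ASAH1, the acid ceramidase, was called in no comparison.

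ACP2, the lysosomal acid phosphatase, was the member called in opposite directions in the single knockdowns. ACP2 had 568, 547 and 567 normalised reads in SIRT1 KD, 830.5, 872 and 807 in IGF2BP2 KD, 666, 796 and 666 in double KD and 728, 661 and 674 in control cells. The SIRT1 KD libraries were the lowest of the 12, and the IGF2BP2 KD libraries the highest. ACP2 had a log2 fold change of -0.29 (95% limits -0.46 and -0.12, adjusted p = 0.0102) in SIRT1 KD cells. For ACP2 in IGF2BP2 KD cells it was 0.28 (95% limits 0.11 and 0.45, adjusted p = 0.0214). In double KD, ACP2 stood at 0.04 (95% limits -0.13 and 0.21, adjusted p = 0.748). The double KD value of ACP2 did not pass the test. The SIRT1 KD call of ACP2 was lost without control replicate 1 (adjusted p = 0.062). Its IGF2BP2 KD call was lost when any 1 library was left out among IGF2BP2 KD replicates 1 or 2 and control replicates 2 or 3 (adjusted p of 0.0582 to 0.0951). For DNASE2, the acid nuclease, the double KD log2 fold change was -0.22 (95% limits -0.40 and -0.04, adjusted p = 0.0552). Without double KD replicate 2, DNASE2 stood at -0.27 (adjusted p = 0.00298). ACP5, the tartrate-resistant phosphatase of osteoclasts and macrophages, had too few reads to test, with 0, 0 and 1.05 normalised reads in SIRT1 KD, 1.78, 3.01 and 5.75 in IGF2BP2 KD, 2.67, 4.12 and 4.12 in double KD and 6.70, 3.74 and 1.93 in control cells.

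Setting the double KD against each single knockdown asks what was added by the other hairpin. The SIRT1 transcript, however, was lower in every double KD library than in every SIRT1 KD library, as given above. In the comparison with SIRT1 KD, the IGF2BP2 hairpin and a deeper loss of SIRT1 therefore cannot be told apart. Against SIRT1 KD, 3 members rose (SMPD1, PPT2 and ACP2) and 5 fell (CTSH, CTSS, GALC, NEU1 and LIPA), or 18.6% against 22.6% of all tested genes (11.9% higher, 10.7% lower). On the log2 scale GALC differed by -1.30 (95% limits -1.46 and -1.14, adjusted p = 2.09e-09), and NEU1 by -1.07 (95% limits -1.23 and -0.90, adjusted p = 3.58e-08). CTSS differed by -0.65 (95% limits -0.89 and -0.42, adjusted p = 0.000324), and CTSH by -0.34 (95% limits -0.49 and -0.18, adjusted p = 0.00253). Among the rises, PPT2 differed by 0.36 (95% limits 0.17 and 0.55, adjusted p = 0.00834). ACP2 differed by 0.33 (95% limits 0.16 and 0.50, adjusted p = 0.00579), and SMPD1 by 0.32 (95% limits 0.14 and 0.49, adjusted p = 0.00905). Calls of ACP2, CTSH, CTSS, GALC and NEU1 held in all 21 alternatives. With double KD replicate 2 left out the count was 16 (5 higher, 11 lower), against 29.3% of all genes (15.3% higher, 14% lower). With double KD replicate 1 left out, 6 members were higher. The call of LIPA was lost when any 1 library was left out among SIRT1 KD replicates 1 or 3 (adjusted p of 0.0674 to 0.0765).

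Against IGF2BP2 KD, 5 members rose (CTSC, CTSL, GAA, ARSA and PSAP) and 11 fell (CTSK, CTSO, CTSV, CTSZ, CTSD, SCPEP1, GALC, FUCA1, GALNS, ACP2 and DNASE2), or 37.2% against 31.6% of all tested genes (16.4% higher, 15.2% lower). On the log2 scale CTSL, low in IGF2BP2 KD cells, differed by 0.42 (95% limits 0.23 and 0.62, adjusted p = 0.00169). CTSC, a dipeptidyl peptidase that activates granule proteases, had 1942, 1853 and 1907 normalised reads in SIRT1 KD, 1722, 1511 and 1543 in IGF2BP2 KD, 1914, 1945 and 2023 in double KD and 1769, 1779 and 1830.4 in control cells. Its IGF2BP2 KD libraries were the lowest of the 12, and the log2 difference of CTSC was 0.30 (95% limits 0.17 and 0.44, adjusted p = 0.00145). Among the falls, GALC differed by -0.65 (95% limits -0.81 and -0.49, adjusted p = 4.38e-06), and CTSO by -0.63 (95% limits -0.90 and -0.35, adjusted p = 0.00112). CTSV differed by -0.46 (95% limits -0.82 and -0.11, adjusted p = 0.041), and CTSD by -0.44 (95% limits -0.73 and -0.15, adjusted p = 0.0219). The call of CTSD was lost when any 1 library was left out among IGF2BP2 KD replicate 2 and double KD replicates 1 or 3 (adjusted p of 0.076 to 0.09). That of CTSV was lost when any 1 library was left out among SIRT1 KD replicate 3, IGF2BP2 KD replicates 1, 2 or 3, double KD replicate 1 and control replicates 2 or 3 (adjusted p of 0.0519 to 0.144), with no filter (adjusted p = 0.153), and with DESeq2 (adjusted p = 0.0918). The calls of CTSK and DNASE2 were each lost without IGF2BP2 KD replicate 2 (adjusted p of 0.0743 and 0.0797), CTSK also without double KD replicate 3 (0.0719) and DNASE2 without double KD replicate 1 (0.053). The call of ACP2 was lost when any 1 library was left out among IGF2BP2 KD replicates 1 or 2 and double KD replicates 1 or 3 (adjusted p of 0.0624 to 0.0981). Calls of CTSC, CTSL, CTSO, CTSZ, FUCA1, GALC and GALNS held in all 21 alternatives. The number higher was 2 without IGF2BP2 KD replicate 1, IGF2BP2 KD replicate 3 or double KD replicate 2. The count was 10, with 6 lower, without IGF2BP2 KD replicate 2, and 7 were lower without double KD replicate 1. Without double KD replicate 2 it was 18, with 16 lower, against 36.9% of all genes (19% higher, 17.8% lower). ARSA, the sulfatide sulfatase, had 163, 192 and 185 normalised reads in SIRT1 KD, 174, 185 and 161 in IGF2BP2 KD, 242, 294 and 181 in double KD and 189.6, 218 and 238 in control cells. It differed by 0.44 (95% limits 0.13 and 0.74, adjusted p = 0.0274), and its call was lost when any 1 library was left out among IGF2BP2 KD replicates 1 or 3 and double KD replicates 1 or 2 (adjusted p of 0.0594 to 0.105). Here 2 of the 3 double KD libraries of ARSA lay above the IGF2BP2 KD range. GAA, the glycogen-degrading glucosidase, had 1866, 1681 and 1696 normalised reads in SIRT1 KD, 1166, 1573 and 1307 in IGF2BP2 KD, 1518, 1957 and 1519 in double KD and 1609, 1528 and 1599.9 in control cells. GAA differed by 0.30 (95% limits 0.08 and 0.53, adjusted p = 0.0344). Its groups overlapped, and the call of GAA was lost when any 1 library was left out among IGF2BP2 KD replicates 1 or 3 and double KD replicate 2 (adjusted p of 0.0783 to 0.184). Leaving out double KD replicate 2 gave differences of 0.28 (adjusted p = 0.0717) for ARSA and 0.18 (adjusted p = 0.0783) for GAA. PSAP differed by 0.28 (95% limits 0.07 and 0.48, adjusted p = 0.036), and by 0.13 (adjusted p = 0.091) without that library. Its call was lost when any 1 library was left out among IGF2BP2 KD replicates 1, 2 or 3 and double KD replicate 2 (adjusted p of 0.058 to 0.129).

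Whether the double KD change equals the sum of the single changes was tested as an interaction, the difference between double KD and SIRT1 KD minus that between IGF2BP2 KD and control. For 1 of 43 members it passed the test, against 2.86% of all tested genes (1.7% positive, 1.16% negative). The sum takes the loss of SIRT1 as equal with and without the IGF2BP2 hairpin. The SIRT1 transcript, however, was lower in every double KD library than in every SIRT1 KD library. A departure from the sum, or its absence, therefore cannot be told apart from an effect of that deeper loss. CTSH had an interaction of -0.41 (95% limits -0.63 and -0.20, adjusted p = 0.0379) on the log2 scale, being higher in SIRT1 KD but not in double KD cells. This call was lost when any 1 library was left out among SIRT1 KD replicates 1, 2 or 3, IGF2BP2 KD replicates 1, 2 or 3, double KD replicate 3 and control replicates 1, 2 or 3 (adjusted p of 0.0509 to 0.133). At an unadjusted p under 0.05 there were 2 positive and 7 negative interactions, and edgeR called 1 member, against 3.32% of all genes, and DESeq2 3 (ARSA higher, CTSH and LIPA lower), against 5.23%. Without double KD replicate 2 the count was 8, with ARSA positive and CTSF, CTSH, CTSD, HEXA, NEU1, LIPA and DNASE2 negative, against a background of 10.1% (6.06% positive, 4.02% negative). With double KD replicate 3 left out it was 3. The estimate for CTSD was -0.37 (95% limits -0.77 and 0.04, adjusted p = 0.331) with all libraries and -0.57 (adjusted p = 0.000213) without double KD replicate 2. For NEU1 it was -0.21 (95% limits -0.45 and 0.02, adjusted p = 0.327) and -0.29 (adjusted p = 0.0236). For ARSA the interval was wide, at 0.69 (95% limits 0.26 and 1.12, adjusted p = 0.0779).

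**Figure D4:**
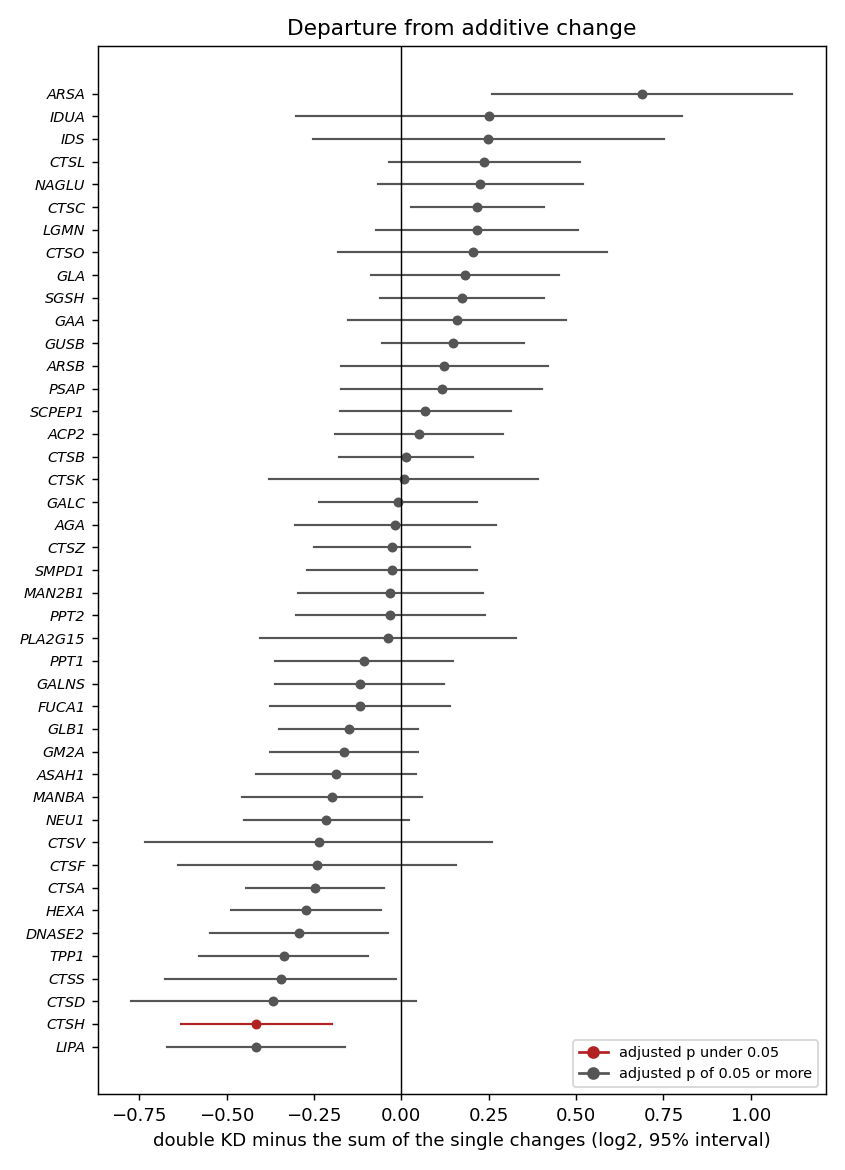
Departure of the double KD from the sum of the single knockdown changes for the 43 tested members, as the limma estimate (dot) and its 95% interval (line), on the log2 scale. CTSH at -0.41 is the member that passed the test, in red, GALC sits at -0.01, and ARSA and IDUA have wide intervals.

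Genes of the machinery that brings these enzymes to the lysosome were called in both directions. Of 12 tested genes of mannose 6-phosphate tagging and receptor delivery, 3 rose and 3 fell in SIRT1 KD, 4 rose in IGF2BP2 KD, and 6 rose and 3 fell in double KD cells. That is 50%, 33.3% and 75%, against 28.6%, 16.3% and 34.2% of all tested genes. In IGF2BP2 KD cells 7 were higher without double KD replicate 2, where 13% of all tested genes were higher. SORT1, the sorting receptor that carries PSAP and other cargo, had 2374, 2222 and 2529.8 normalised reads in SIRT1 KD, 6187, 5759 and 6207 in IGF2BP2 KD, 2843, 3014 and 2937 in double KD and 6033, 6195 and 6181 in control cells. Its log2 fold change was -1.37 in SIRT1 KD and -1.07 in double KD cells (adjusted p of 9.3e-11 and 4.38e-10). The 6 libraries with the SIRT1 hairpin lay far below the other 6. SORL1, a related receptor, had log2 fold changes of -1.29 in SIRT1 KD, 0.41 in IGF2BP2 KD and -0.60 in double KD cells (adjusted p of 1.8e-09, 0.00162 and 1.15e-05). IGF2R, the large mannose 6-phosphate receptor, had -0.31, 0.18 and -0.59 in the same order (adjusted p of 0.000803, 0.0546 and 6.23e-07). GGA3, an adaptor for these receptors, rose, by 0.25 in SIRT1 KD and 0.40 in double KD cells (adjusted p of 0.0074 and 8.67e-05).

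Of 6 genes for maturation and receptor recycling, CLN8, which carries hydrolases out of the endoplasmic reticulum, had the largest change. CLN8 had 577, 593 and 546 normalised reads in SIRT1 KD, 342, 391 and 343 in IGF2BP2 KD, 599, 716 and 562 in double KD and 259.5, 315 and 288 in control cells. CLN8 had a log2 fold change of 0.99 (95% limits 0.78 and 1.21, adjusted p = 6.26e-07) in SIRT1 KD cells. For CLN8 in double KD cells it was 1.12 (95% limits 0.90 and 1.33, adjusted p = 1.08e-07). All 6 libraries with the SIRT1 hairpin lay above the others. SUMF1, which activates the sulfatases, had a SIRT1 KD log2 fold change of -0.40 (95% limits -0.60 and -0.19, adjusted p = 0.00449). VPS35, a retromer subunit that returns the receptors, had -0.33 in IGF2BP2 KD and -0.55 in double KD cells (adjusted p of 0.00371 and 8.21e-06). Counts for this list were 2 higher and 1 lower in SIRT1 KD, 1 and 1 in IGF2BP2 KD, and 2 and 1 in double KD cells, or 50%, 33.3% and 50% against 28.6%, 16.3% and 34.2% of all tested genes. In double KD cells it was 3 higher and 3 lower without double KD replicate 2, where 19.6% of all tested genes were higher and 20.6% lower.

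A further list held 22 lysosomal proteins outside the set, mostly hydrolases but also the non-hydrolases CREG1, NPC2, IFI30 and EPDR1. Of these 22, 6 rose and 5 fell in SIRT1 KD, and 2 rose and 2 fell in IGF2BP2 KD cells. In double KD cells 6 rose and 6 fell. That is 50%, 18.2% and 54.5% in that order, against the same backgrounds. In IGF2BP2 KD cells it was 5 higher and 4 lower without double KD replicate 2, where 13% of all tested genes were higher and 15.7% lower. CREG1 had log2 fold changes of -0.54 (95% limits -0.70 and -0.38, adjusted p = 3.36e-05) in SIRT1 KD and -0.42 (95% limits -0.58 and -0.26, adjusted p = 0.000313) in double KD cells. CTBS, which trims chitobiose from glycans, had -0.49 (95% limits -0.72 and -0.27, adjusted p = 0.00166) in SIRT1 KD and -0.74 (95% limits -0.96 and -0.51, adjusted p = 2.7e-05) in double KD cells. SIAE, a sialic acid esterase, had -0.63 (95% limits -0.82 and -0.44, adjusted p = 2.5e-05) in double KD cells. Of the cystatins, which inhibit cysteine cathepsins, 6 of 7 were tested. CST7, a cystatin that enters the endolysosome, had 251, 231 and 237 normalised reads in SIRT1 KD, 219, 269 and 213 in IGF2BP2 KD, 126, 140.0 and 138 in double KD and 321, 289 and 299 in control cells. Its double KD libraries lay below all others. CST7 had a log2 fold change of -1.16 (95% limits -1.39 and -0.94, adjusted p = 1.15e-07) in double KD cells. CST6 had -0.64 (95% limits -0.89 and -0.38, adjusted p = 0.000595) and CSTB 0.36 (95% limits 0.21 and 0.52, adjusted p = 0.000937) in SIRT1 KD cells, so that a secreted and a cytosolic inhibitor moved in opposite directions. CST4 had -0.68 in SIRT1 KD, -0.58 in IGF2BP2 KD and -0.69 in double KD cells (adjusted p of 0.00344, 0.0194 and 0.00282). The IGF2BP2 KD call of CST4 was lost when any 1 library was left out among IGF2BP2 KD replicates 1 or 3 and control replicates 1, 2 or 3 (adjusted p of 0.0505 to 0.126). Of the cystatins 1 rose and 3 fell in SIRT1 KD, 1 rose and 2 fell in IGF2BP2 KD, and 1 rose and 2 fell in double KD cells, or 66.7%, 50% and 50% against 28.6%, 16.3% and 34.2% of all tested genes. For the cystatins in double KD cells it was 1 higher and 4 lower without double KD replicate 2. Of all tested genes 19.6% were then higher and 20.6% lower. Several of these calls were lost when any 1 of several libraries was left out. The SIRT1 KD call of CST7 was lost when any 1 library was left out among SIRT1 KD replicates 2 or 3 and control replicates 1 or 3 (adjusted p of 0.0585 to 0.102). Its IGF2BP2 KD call was lost when any 1 library was left out among IGF2BP2 KD replicates 1 or 3 and control replicates 1 or 3 (adjusted p of 0.0584 to 0.106). The IGF2BP2 KD call of CSTB was lost when any 1 library was left out among SIRT1 KD replicates 1 or 3, IGF2BP2 KD replicates 1, 2 or 3 and control replicates 1, 2 or 3 (adjusted p of 0.0517 to 0.155). In double KD cells that of CSTB was lost when any 1 library was left out among SIRT1 KD replicates 1, 2 or 3, IGF2BP2 KD replicates 1, 2 or 3, double KD replicates 1 or 3 and control replicates 1, 2 or 3 (adjusted p of 0.0528 to 0.232). ATP6V1A, which is no member, had 1058, 916 and 1111 normalised reads in SIRT1 KD, 2624, 2314 and 2618 in IGF2BP2 KD, 1495, 2513 and 1960.1 in double KD and 2509, 2501 and 2594 in control cells. ATP6V1A had a log2 fold change of -1.31 (95% limits -1.59 and -1.02, adjusted p = 3.24e-06) in SIRT1 KD cells. For ATP6V1A in IGF2BP2 KD cells it was -0.01 (95% limits -0.30 and 0.28, adjusted p = 0.968). In double KD, ATP6V1A stood at -0.38 (95% limits -0.67 and -0.09, adjusted p = 0.0402). The double KD call of ATP6V1A was lost when any 1 library was left out among IGF2BP2 KD replicate 1, double KD replicates 1 or 3 and control replicates 1, 2 or 3 (adjusted p of 0.0527 to 0.151), and double KD replicate 2 lay at the control level.

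A pair of 7-letter motifs in 3′ untranslated regions, CTCAGAT and TCAGATA, which overlap in 6 letters, was picked in earlier work on these same files from genes lower in SIRT1 KD cells. They were searched on the transcript strand of GENCODE 29 in 42 members. In 9 of them (ARSB, ASAH1, CTSB, CTSC, CTSS, GALNS, HEXA, IDS and PPT1) a match was found, or 21.4%, the same share as the 21.4% of 13117 tested genes. Over all genes 36.8% of those with a match and 14.1% of those without fell in SIRT1 KD cells, a difference that the choice of the motifs fixes. Of the 9 members 0 were called lower there by limma (2 at an unadjusted p under 0.05) and by edgeR, and 1 by DESeq2, against 7 of the 33 members without a match, while without double KD replicate 2 limma called GALNS and IDS lower. In double KD cells CTSS, GALNS and IDS fell and HEXA rose. Sites of 7 of the 9 are shown to compare the bases around the motif, 5′ to 3′, with the motif in capitals, on GRCh38. Exon numbers refer to 1 annotated transcript with the site, which need not be the main one of the gene. Levels of single transcripts were not measured.
ARSB, chr5:78884901-78884929, minus strand, exon 5 of 5: caggacccagaCTCAGATttggaaatcgt
CTSC, chr11:88325783-88325811, minus strand, exon 4 of 4: aagaggctttcTCAGATAtgtcagactgc
CTSC, chr11:88325784-88325812, minus strand, exon 4 of 4: aaagaggctttCTCAGATatgtcagactg
CTSS, chr1:150732229-150732257, minus strand, exon 8 of 8: tgtcctaaggaCTCAGATtgtatctttgt
GALNS, chr16:88814219-88814247, minus strand, exon 14 of 14: gcccacggcgcCTCAGATttcaggaccct
HEXA, chr15:72342855-72342883, minus strand, exon 14 of 14: gaactcatgacCTCAGATgttcacttgtc
IDS, chrX:149482016-149482044, minus strand, exon 9 of 9: ttaaactttttTCAGATActttctggccc
PPT1, chr1:40073956-40073984, minus strand, exon 9 of 9: ccaagcctgagCTCAGATccagcttgcaa

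Members that other cells express more strongly were set beside markers of such cells. CTSK, CTSS and ACP5 are typical of macrophages and osteoclasts. Of 5 markers of those cells, PTPRC, CD14, CSF1R, MARCO and LYZ, MARCO was at 0 in all libraries, and the sum was 82.1 to 92.3 normalised reads in SIRT1 KD, 175 to 181 in IGF2BP2 KD, 94.4 to 119 in double KD and 137 to 154 in control cells. CSF1R made up most of it, with 71.6 to 78.9, 161 to 168, 89.0 to 113 and 125 to 131 in that order, and PTPRC stayed at or under 5.75 in every library. The sum was lower in the same 2 groups as CTSK, and its part in that result was not tested. In IGF2BP2 KD cells the sum lay above control, while CTSK overlapped with control. CTSS lay above control in SIRT1 KD, where the sum was lowest, and below control in IGF2BP2 KD, where it was highest. In double KD cells both CTSS and the sum lay below control. Luminal breast markers (ESR1, PGR, GATA3, FOXA1 and CDH1) summed to 148 to 181 in SIRT1 KD, 235 to 242 in IGF2BP2 KD, 124 to 156 in double KD and 213 to 237 in control cells, nearly all of it GATA3. Embryonic kidney markers of the packaging cells (PAX2 and LHX1) summed to at most 2.87.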

How the data were processed

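RNA was extracted with Trizol, and 1 µg per sample was made into libraries with an NEB Ultra II kit, per the labels' protocols. The submitters' processing notes name STAR, CASAVA and DESeq2, with no versions, and the genome build GRCh38.p13. The values used are a signal per gene, counts divided by size factors, as deposited by the authors. A second table of log2 ratios against the control mean, deposited by the authors, served to match the column codes of the first to the samples: over 10362 genes the SD of the difference was at most 0.00197 for a column's own sample and at least 0.0976 for any other, and the code of the SIRT1 KD columns was assigned by elimination. A further 12 columns of per-sample values were not used. Gene annotation, counting program and strand setting are not stated in the labels or headers. Every value in the 12 columns was a whole multiple of 1 step within a tolerance of 0.001 reads (100% of values), so reads were recovered. In 2 columns the step is close to 1, so the check is weak there.

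Values were taken as log2(normalised value + 1), which understates changes of low genes, and fitted with limma 3.58.1 in R 4.3.3 on 4 group means over all 12 libraries, with trended and robust variance moderation. edgeR 4.0.16 was used to keep genes with a minimum count of 10 (17576 genes), and p-values were adjusted by Benjamini-Hochberg over these genes and are two-sided. Alternatives were a pseudocount of 0.5 or 5, no filter, only the groups compared, a replicate block, variance moderation without trend or robustness, each library left out, TMM scaling, and count tests on the recovered reads with edgeR and DESeq2 1.42.0. Tests were checked on simulated data. Members got values by size of change: up to 8 rises and 8 falls against control, and up to 4 and 4 elsewhere. From each pathway list up to 4 genes were taken by adjusted p, and some of these are not reported here. The members and lists were chosen with earlier results of these data known. Promoter windows came from RefSeq (GRCh38.p14) and gene models from GENCODE 29.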

Additional observations from a re-analysis of the deposited data

Results flagged for a closer look

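CTSH stood out because its change in double KD cells differed from the sum of its single knockdown changes by a test of that difference, with an interaction of -0.41 on the log2 scale (limma, adjusted p = 0.0379). It was higher in SIRT1 KD cells alone, and the call was lost without any 1 of the SIRT1 KD, IGF2BP2 KD or control libraries, or without double KD replicate 3, with adjusted p of 0.0509 to 0.133. An effect of the deeper loss of SIRT1 in double KD cells cannot be told apart from this interaction.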

How the results depend on the processing

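The number of members called moved by more than 1.5 times under these settings. With only the groups compared in the fit, 27 were called in SIRT1 KD (12 higher, 15 lower), 20 in IGF2BP2 KD (10 lower), 3 were higher in double KD, and 7 differed between double KD and IGF2BP2 KD (2 higher, 5 lower). Calls over all tested genes moved likewise, from 5030 to 7794 in SIRT1 KD and from 2857 to 5116 in IGF2BP2 KD cells. They went from 6018 to 4426 in double KD, and from 5550 to 3641 between double KD and IGF2BP2 KD. With no filter, 3 were higher in double KD, and 10 differed between double KD and IGF2BP2 KD (6 lower). Over all genes 5199 were then called in double KD, and 4681 between double KD and IGF2BP2 KD. Under edgeR and under DESeq2, 5 were higher in SIRT1 KD. DESeq2 also gave 5 higher in double KD against SIRT1 KD and 3 interactions (1 higher, 2 lower). With variance moderation without trend or robustness, 5 were higher in IGF2BP2 KD, 2 were higher in double KD against IGF2BP2 KD, and 0 interactions were called (0 lower). Over all tested genes that moderation gave 135 interactions and DESeq2 gave 919, against 503 with trended and robust moderation. The cause of these shifts was not tested, but the fits with fewer groups or plain moderation estimate the spread from other samples or in another way.

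Leaving out 1 library at a time gave 6 to 21 members in SIRT1 KD (1 to 8 higher, 5 to 13 lower), 7 to 22 in IGF2BP2 KD (4 to 11 higher, 3 to 11 lower), 13 to 22 in double KD (4 to 7 higher, 8 to 15 lower), 7 to 16 in double KD against SIRT1 KD (3 to 6 higher, 4 to 11 lower), 10 to 18 in double KD against IGF2BP2 KD (2 to 6 higher, 6 to 16 lower), and 0 to 8 interactions (0 to 1 higher, 0 to 7 lower). No member or pathway gene that was called reversed its direction under any alternative run. The 65 calls of members over the 6 comparisons were each refitted under the alternatives, and of the 1364 values this gave 1210 kept the call and 154 lost it. Of 4011 such values of members not called with all libraries, 120 were called. With no filter, SIRT1 KD calls of CTSK (limma, adjusted p = 0.0802) and GM2A (0.156) were lost. In IGF2BP2 KD those of CTSD (0.161), SCPEP1 (0.191), GM2A (0.141) and ACP2 (0.08) were lost. In double KD those of HEXA (0.238), GALNS (0.134), PPT2 (0.0748) and PSAP (0.105) were lost. Same-numbered libraries of different groups correlated at -0.193 to 0.0996, and other-numbered ones at -0.165 to 0.229. Of the 12 libraries, 6 correlated best with their own number. This check cannot decide whether the replicate numbers pair the libraries. With the replicate block 2 interactions were called (2 lower). Depth limits the low members most, such as CTSV with a control mean of 68.5 normalised reads and ACP5, which was not tested.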
